A study of Bos taurus and Cervus elaphus with 24 samples.

Results

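The cathelicidins CATHL1 to CATHL6, lactotransferrin (LTF), lipocalin 2 (LCN2), peptidoglycan recognition protein 1 (PGLYRP1) and bactericidal permeability-increasing protein (BPI) were followed in blood RNA. They were chosen by gene name: every non-control probe of an Agilent bovine oligonucleotide array whose gene name is one of these 10 symbols was taken. That gave 22 probes of 10 genes, out of 43653 probes on the array. The donors were cattle of the Holstein-Friesian (HF) and Polish Red (PR) breeds and deer (Cervus elaphus). Each animal gave blood when dry and again at peak lactation, according to the series text, so that 4 animals per breed or species make up 6 groups of 4 arrays. The subject number in the labels was read as the animal. The labels name no treatment, and they give neither ages nor days of lactation. The labels call the material peripheral blood nuclear cells, but RNeasy Protect Animal Blood tubes, which stabilise RNA in whole blood, were used, and the labels name no step that separates cell types. Each array carried the animal's RNA in Cy5 and a common reference in Cy3, made from 20 cattle that belonged to none of the groups, so a value is the log2 ratio of Cy5 over Cy3 after loess normalization within the array. A value of 0 is the level of that pooled cattle reference, for deer as well as for cattle. The reference is itself blood RNA, and a ratio says nothing about how abundant a transcript is against another one.

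All 10 genes encode proteins that neutrophils store in granules and release against microbes. Cathelicidins are made as precursors with a conserved front domain, and a variable antimicrobial peptide is cut from the end. Cattle carry a large cathelicidin family, with bactenecins, indolicidin and myeloid antimicrobial peptides among its products. LTF binds iron, LCN2 binds the siderophores with which bacteria collect iron, PGLYRP1 binds bacterial peptidoglycan, and BPI binds lipopolysaccharide. In the bone marrow, the transcripts of specific (secondary) granule proteins are made mainly at the myelocyte and metamyelocyte stages and are low in mature blood neutrophils, whereas the primary granule proteins are made earlier. BPI is stored in primary granules.

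The probes place the family before any value is read. Per the file headers, positions are on the UMD 3.1 cattle assembly. Probes of CATHL1, CATHL2, CATHL3, CATHL5 and CATHL6 lay within 72.6 kb of chromosome 22, between 52148170 and 52220752, all of them on the minus strand apart from a single CATHL1 probe. The LTF probes lay 1.31 Mb further along the same chromosome, on the plus strand. CATHL4 was on an unplaced contig, LCN2 on chromosome 11, PGLYRP1 on chromosome 18 and BPI on chromosome 13. Of the 22 probes, 8 spanned an intron of their gene. The sequences below show where in each transcript a second reading was taken. Each is a 60-base probe that reads open in at least 1 frame and is not the gene's most 3′ probe on the array, unless it spans an intron. That rule left 7 genes, and the probes of CATHL3, CATHL4 and LCN2 are named only. For CATHL1 and CATHL5 the printed probe is the brightest of the gene, and for the other 5 genes it is the second brightest. Capitals mark the longest run of letters that a cathelicidin probe shared with a printed probe of another cathelicidin, and the 3 other genes are shown without capitals.

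CATHL1, chr22:52148306-52148949, minus strand: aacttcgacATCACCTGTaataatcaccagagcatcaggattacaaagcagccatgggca
CATHL2, chr22:52190452-52190655, minus strand: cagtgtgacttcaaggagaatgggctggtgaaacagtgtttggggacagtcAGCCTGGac
CATHL5, chr22:52220114-52220752, minus strand: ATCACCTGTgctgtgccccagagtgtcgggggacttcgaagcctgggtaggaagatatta
CATHL6, chr22:52212856-52213545, minus strand: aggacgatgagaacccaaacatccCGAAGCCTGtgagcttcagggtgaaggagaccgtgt
LTF, chr22:53554246-53554305, plus strand: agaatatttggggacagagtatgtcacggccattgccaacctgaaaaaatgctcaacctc
PGLYRP1, chr18:53947967-53948026, minus strand: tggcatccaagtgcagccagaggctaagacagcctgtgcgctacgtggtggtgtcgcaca
BPI, chr13:67848081-67848140, plus strand: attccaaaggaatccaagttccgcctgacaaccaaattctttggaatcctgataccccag

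No 2 cathelicidin probes were near copies of each other. Over the 40 pairs of cathelicidin probes from different genes on the gene's own strand, the longest run of identical letters was 12 of 60, and the median was 6. The run of 9 letters shared by CATHL1 and CATHL5 and the run of 9 shared by CATHL6 and CATHL5 are the longest among those printed. Signal from the transcript of one family member on the probe of another was not tested here. A single CATHL1 probe and a single CATHL4 probe, both named from expressed sequence tags, lay on the strand opposite to the other probes of their gene. They are shown because their values differ from those of every other probe.

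CATHL1, opposite strand, chr22:52148603-52148662, plus strand: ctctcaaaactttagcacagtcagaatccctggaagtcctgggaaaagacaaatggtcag
CATHL4, opposite strand, unplaced contig: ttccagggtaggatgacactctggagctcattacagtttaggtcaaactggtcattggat

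Signal was sufficient for most but not all of these probes. Cy5 was well above background on all 24 arrays for 8 of the 22 probes, and no spot of a studied gene was saturated in either channel. Cy5 was above background for 30835 to 39106 probes on 23 of the arrays, and a probe entered a test where 3 or more of the 4 arrays in a group passed that limit. The array of PR dry animal 1 was far brighter than the rest, with a median Cy5 signal of 2036 against 108 to 254 on the other 23, and it held the highest dry PR value of PGLYRP1 and of each of the 6 cathelicidins. Spike-in correlations in the file headers were between 0.174 and 0.401 for HF animals 2 and 3 in both states and 0.331 for the bright array of PR dry animal 1, against 0.899 or more elsewhere. Deer and cattle never shared a slide, so slide and species cannot be told apart, nor can species and the match of deer transcripts to cattle probes. In blood RNA, more cells of a type and more RNA per cell cannot be told apart.

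A single array held the highest cattle value of all 10 genes. On the array of HF animal 3 at peak lactation, 20 of the 22 probes were higher than on any of the other 15 cattle arrays, and 18 of the 22 were higher than on any of the other 23 arrays. The exceptions among cattle were the 2 opposite-strand probes shown above. The lead over the next cattle array exceeded 1 log2 unit for 15 of the 22 probes, or 68.2%. The same lead was reached by 55 of all 43653 probes, or 0.126%. The order did not depend on the scale: this array was the highest cattle array for 10 of 10 genes with median centring in place of loess and with Agilent's own processed ratio, and for 9 of 10 with Cy5 alone, where CATHL3 was higher on the bright array of PR dry animal 1.

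**Figure D1:**
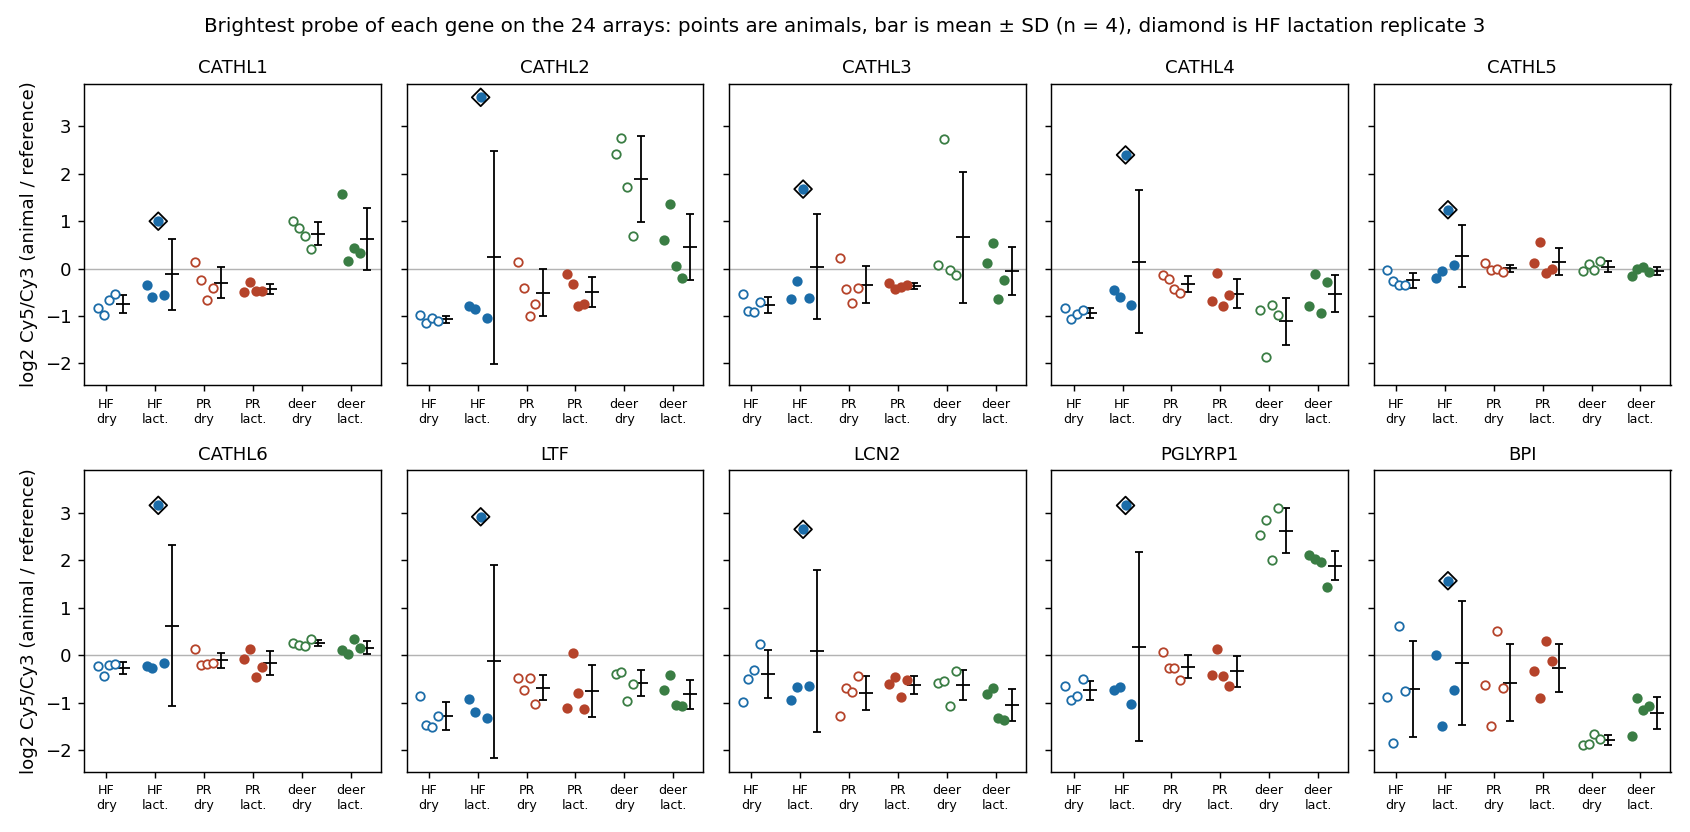
Log2 Cy5/Cy3 (vertical axis) of the brightest probe of each of the 10 genes in the 6 groups (horizontal axis). Points are animals (open, dry period; filled, peak lactation) and black bars give the mean ± SD of 4 arrays. The diamond is HF lactation animal 3, which sits above the other 15 cattle arrays in all 10 panels, while deer are above cattle for PGLYRP1 in both states with that array left aside.

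The raw signals show the size of this lead without any normalization. The brightest LTF probe read 24033 in Cy5 on this array, against 224 to 612 on the 14 cattle arrays other than the bright array of PR dry animal 1. PGLYRP1 read 15460 against 94.0 to 239. These readings were 39.3 and 64.6 times the highest of those 14. LCN2 read 38010 against 1081 to 3922, CATHL2 read 5137 against 71.1 to 218, and CATHL4 read 1702 against 61.8 to 141. In the reference channel, 3 of the 10 genes were also above the range of those 14 arrays here: Cy3 was 1158 against 321 to 518 for LTF, 2157 against 1171 to 1878 for LCN2, and 633 against 94.5 to 156 for PGLYRP1. The reference RNA is the same pool on every array, and a higher Cy3 signal lowers the ratio. The part of the Cy3 values in the ratios was not tested beyond the Cy5 signals given here.

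Among the cathelicidins, CATHL2, a bactenecin precursor, had the highest value on this array. In HF at peak lactation its brightest probe read -0.80, -0.85, 3.61 and -1.04 in animals 1 to 4, and in the dry period -0.98, -1.16, -1.04 and -1.10. Without animal 3 both states of HF thus fell between -1.16 and -0.80. PR values were 0.13, -0.42, -1.01 and -0.76 when dry and -0.12, -0.34, -0.79 and -0.74 in lactation. CATHL2 probes 2 and 3 read 2.50 and 1.93 on the array of HF lactation animal 3, and at most 0.18 on any other cattle array.

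CATHL6 varied little outside that array. Its brightest probe read -0.23, -0.27, 3.16 and -0.16 in lactating HF, and between -0.46 and 0.13 on the other 15 cattle arrays together. Its second probe read 2.10 on the same array. CATHL4, the indolicidin precursor, read -0.46, -0.60, 2.40 and -0.78 in lactating HF and -0.82, -1.06, -0.97 and -0.87 in dry HF. Its opposite-strand probe read 0.07 there, inside the cattle range of -0.06 to 0.26.

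The 3 other cathelicidins rose less far on that array. CATHL3 read 1.67 against -0.92 to 0.22 on the other cattle arrays. CATHL5 read 1.24 against -0.36 to 0.55, where the high end was PR lactation animal 2. CATHL1 read 1.00 and 1.19 by its 2 own-strand probes, against a highest other cattle value of 0.13 and -0.01. The opposite-strand CATHL1 probe, which lies inside the stretch of genome that the first CATHL1 probe skips, read 0.04 and was above background on 5 of 24 arrays.

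Both iron-related proteins followed the same array. LTF has 5 probes along the gene, and on HF lactation animal 3 they read 2.92, 3.45, 3.17, 2.02 and 0.97 in the order of their brightness, with the 2 dimmest above background on only 5 of 24 arrays each. By the brightest probe, the other lactating HF animals read -0.92, -1.19 and -1.32, and dry HF animals -0.86, -1.48, -1.51 and -1.28. HF animal 3 itself was thus the lowest of the 4 when dry and the highest in lactation. LCN2 read 2.66 in that animal in lactation and -0.32 when dry. Its other HF values were -0.95, -0.67 and -0.65 in lactation, and -0.99, -0.51 and 0.23 when dry, so that HF animal 4 held the highest dry value.

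PGLYRP1 and BPI behaved differently from each other. The 2 PGLYRP1 probes read 3.16 and 3.45 on the array of HF lactation animal 3, and no other cattle array exceeded 0.14. BPI read 1.57 by its brighter probe and 0.93 by the other, and its lead over the next cattle array was the smallest among the non-cathelicidin genes, at 0.95. The next cattle array for BPI was the same animal in the dry period, at 0.62.

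**Figure D2:**
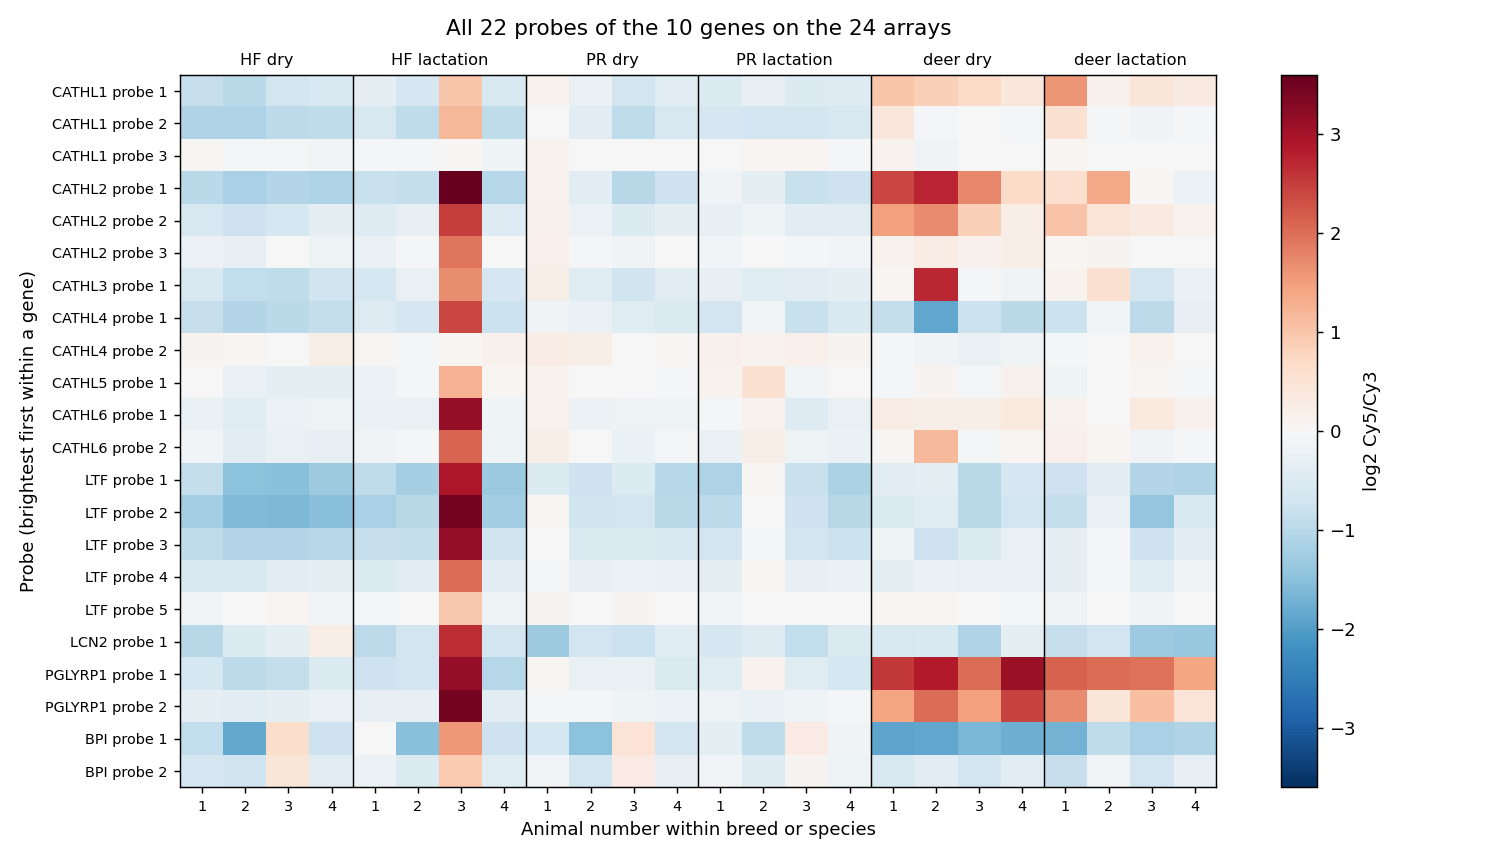
Log2 Cy5/Cy3 (colour) of all 22 probes (rows, brightest first within a gene) on the 24 arrays (columns, animals 1 to 4 in each group). The column of HF lactation animal 3 is red in every row except CATHL1 probe 3 and CATHL4 probe 2, the opposite-strand probes, and the deer columns are red for PGLYRP1, as are those of dry deer for CATHL2 probes 1 and 2.

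The first comparison asked which of these genes differed between peak lactation and the dry period in HF. All 10 were higher in lactation by their brightest probe, with a median difference of 0.85 log2 against -0.01 over all 33099 probes tested, and no probe passed the test. In limma with Benjamini-Hochberg adjustment over all probes tested, 0 of the 17 tested probes of these genes were called at 0.05, and the share called over all probes was 0.00906%. At an unadjusted p under 0.05 there were 6 of 17, against 7.66% over all probes. LTF differed by 1.15 ± 0.58 (SE; adjusted p 0.689), CATHL2 by 1.30 ± 0.69 (adjusted p 0.723) and CATHL4 by 1.07 ± 0.45 (adjusted p 0.555). The lowest adjusted p was 0.521, for CATHL5 at 0.51 ± 0.20.

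Animal 3 had the largest change in each of the 10 genes. Per animal, LTF changed from dry to lactation by -0.07, 0.29, 4.43 and -0.04, CATHL2 by 0.18, 0.31, 4.65 and 0.06, and CATHL4 by 0.36, 0.46, 3.36 and 0.09. PGLYRP1 changed by -0.10, 0.27, 4.03 and -0.52, and LCN2 by 0.05, -0.17, 2.97 and -0.88. Both arrays of an HF animal lay on the same slide, so each of these differences is also a value within a slide. With the array of HF lactation animal 3 left out, the median over the 10 genes was 0.16, 7 were higher and 3 lower, and 0 probes were called. CATHL4 then differed by 0.32 ± 0.23 and LTF by 0.14 ± 0.24, while LCN2 differed by -0.36 ± 0.24 and PGLYRP1 by -0.07 ± 0.23 (limma, adjusted p 1 each).

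In PR the same comparison gave small differences of both signs. Of 17 probes tested 0 were called and 0 had an unadjusted p under 0.05 in limma, where 0% of all probes were called and 5.54% had such a p. By the brightest probe, 4 genes were higher and 6 lower in lactation, and the median was -0.04 against 0.02 over all probes. Without the bright array of PR dry animal 1 the median was 0.02, with 8 genes higher and 2 lower. BPI had the largest difference, 0.31 ± 0.52, and was higher in 3 of 4 animals (changes of 0.29, 0.58, -0.19 and 0.57). LTF changed by -0.63, 0.78, -0.31 and -0.11 in the 4 animals, a spread of both signs around a mean of -0.07. Its limma SE was 0.58. This SE and that of BPI come from the spread shared by all groups, HF lactation animal 3 included, without pairing of animals. Neither SE measures the spread of the changes in the 4 PR animals. Of 3 slides that carried both states of PR, the LTF difference within a slide was -0.63, 0.52 and 0.06. PR animal 2 held the highest lactating PR value for LTF, at 0.04, and for PGLYRP1, at 0.14.

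Deer showed lower values in lactation for most of the genes, and again none was called. Of the 9 genes tested, 8 were lower and 1 was higher, with a median of -0.24 against 0.01 over all probes. In limma 0 of 17 probes were called, against 0.00599% of all probes, and 1 of 17 had an unadjusted p under 0.05, against 9.05%. That probe was CATHL2, which read 2.41, 2.75, 1.72 and 0.69 in dry deer and 0.61, 1.37, 0.05 and -0.21 in lactating deer. The changes in the 4 deer were -1.81, -1.38, -1.67 and -0.89, and the mean difference was -1.44 (limma SE 0.69, adjusted p 0.551). This SE comes from the spread shared by all groups without pairing of animals, so the cattle array of HF lactation animal 3 enters it. It does not measure the spread of the 4 deer changes, and the lack of a call says nothing about their agreement. CATHL2 probes 2 and 3 were also lower in 4 of 4 deer, by smaller mean differences of -0.59 and -0.16. On the single slide that carried both states of deer, with 1 dry and 2 lactating animals, the CATHL2 difference was -1.52. There PGLYRP1 differed by -0.23, CATHL5 by -0.08, CATHL6 by -0.06, CATHL3 by -0.03 and LCN2 by -0.02. LTF differed there by 0.06, BPI by 0.27 and CATHL1 by 0.28. On each other deer slide all arrays were of 1 state, so state and slide are partly confounded in deer.

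By their brightest probe, PGLYRP1, BPI, LTF and LCN2 also changed in the same direction in all 4 deer, without passing the test. The share of all probes that did so was not counted, so this agreement is description only. PGLYRP1 was lower in lactation in 4 of 4 deer, at 2.11, 2.02, 1.97 and 1.43 against 2.54, 2.85, 2.00 and 3.11, but its second probe was lower in only 3 of 4. BPI was higher in 4 of 4 deer by its brighter probe, at -1.70, -0.91, -1.16 and -1.07 against -1.88, -1.87, -1.66 and -1.77, and its other probe was higher in only 2 of 4. LTF was lower in 4 of 4 deer by its brightest probe, with changes of -0.34, -0.07, -0.09 and -0.46, and in 2 and 3 of 4 by LTF probes 2 and 3. LCN2, which has 1 probe, was lower in 4 of 4, with changes of -0.24, -0.14, -0.25 and -1.03. CATHL3 stood out in a single dry deer: animal 2 read 2.73 while the other dry deer read 0.07, -0.03 and -0.13. The same animal read 1.17 by the second CATHL6 probe, where the other dry deer read 0.07 at most, and 0.21 by the first. CATHL4 was above background on none of the 8 deer arrays, so no deer level is given for it.

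The difference between the effects of lactation was tested directly. For HF against PR, 0 of 18 probes were called by limma, as were 0% of all probes, and 0 of 18 had an unadjusted p under 0.05 against 2.93%. All 10 genes had a larger effect in HF, with a median of 0.89. Without HF lactation animal 3 the median was 0.13, with 8 genes larger and 2 smaller in HF. Against the mean of the cattle effects, the deer effect was lower for 8 of the 9 genes with deer signal and higher for BPI, with a median of -0.75, and of -0.27 without HF lactation animal 3. Here too 0 of 18 probes were called against 0% of all probes, and 1 of 18 had an unadjusted p under 0.05 against 8.37%. CATHL2 differed by -2.10 ± 0.85 (adjusted p 0.586).

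The breeds were then compared within each state. In the dry period 9 of 10 genes were lower in HF than in PR, with a median of -0.44 against 0.01 over all probes, and LCN2 was higher by 0.40 ± 0.50. Without the bright array of PR dry animal 1 the median was -0.28, again with 9 of 10 lower, and CATHL2 went from -0.56 to -0.34 and CATHL3 from -0.43 to -0.24. None of the 17 probes was called by limma and 0 had an unadjusted p under 0.05. Of all probes, 2.62% were called, 2.33% higher and 0.292% lower in HF, and 21.6% had such a p. The array of HF lactation animal 3 is no array of this comparison but enters the shared estimate of the spread, which it widens for these genes. The lack of calls therefore does not show that these genes differed less between the breeds than other probes did. LTF read -1.28 on average in dry HF and -0.68 in dry PR, a difference of -0.60 ± 0.58 (adjusted p 0.6). At peak lactation the order was turned, with all 10 genes higher in HF and a median of 0.57. In limma 0 of 18 probes were called against 0% of all probes, 0 had an unadjusted p under 0.05 against 14.2%, and the lowest adjusted p was 0.452. Without HF lactation animal 3 all 10 genes were instead lower in HF, as they were for 9 of 10 when dry, with a median of -0.17 and 0 probes called. HF and PR arrays shared only 1 slide, which carried dry animals HF 4 and PR 2, where LTF read -1.28 and -0.73.

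Deer and cattle differed for some of these genes in the dry period, in a comparison in which more than every other probe tested was called. Deer were compared with the mean of both breeds. Of the 18 tested probes, 8 were called by limma, 7 higher and 1 lower in deer, against 56.7% of all probes called, with 26.3% higher and 30.4% lower. At an unadjusted p under 0.05 there were 8 of 18, against 60.7%. The 8 of 18 are a smaller share than over all probes tested. The direction of a difference on cattle probes cannot be told apart from how well they match deer RNA. With the array of HF lactation animal 3 left out, which is no array of this comparison but enters the shared estimate of the spread, 12 were called, 10 higher and 2 lower, against 56.3% of all probes in the same fit.

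PGLYRP1 gave the clearest separation. Dry deer read 2.54, 2.85, 2.00 and 3.11 by the brighter probe, and the 8 dry cattle read between -0.95 and 0.07. The difference was 3.12 ± 0.49 (SE; adjusted p 1.32e-05 in limma), or 8.69-fold, and the groups did not overlap. The share of all probes without overlap between deer and cattle was not counted. Non-overlap is therefore description only, for this gene and for the cathelicidins below. The second probe, whose sequence is printed above, read 1.43, 2.00, 1.46 and 2.42 in dry deer against -0.42 to -0.03 in cattle, a difference of 2.05 ± 0.47 (adjusted p 0.000831).

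The cathelicidins were split. CATHL2 was higher in dry deer by 2.68 ± 0.60 (adjusted p 0.000631) and by 1.47 ± 0.39 (adjusted p 0.0027) at its brighter probes, and neither overlapped with cattle. CATHL2 probe 3 differed by 0.29 ± 0.24 (adjusted p 0.327). CATHL1 was higher by 1.26 ± 0.26 (adjusted p 0.000244) and 0.81 ± 0.27 (adjusted p 0.0136), the first without overlap. CATHL3 was called at 1.21 ± 0.44 (adjusted p 0.0222), which rests on dry deer animal 2: without it the difference was 0.52 and the adjusted p 0.209. CATHL5 (0.16 ± 0.18) and CATHL6 (0.44 ± 0.40, adjusted p 0.364) were not called. Dry deer did not overlap with dry cattle for CATHL6, which is again description only. Without HF lactation animal 3 in the shared spread, CATHL6 was called (adjusted p 0.000437 in limma). For CATHL4, cattle were at least 1.25-fold higher in Cy5. This bound sets the cattle mean, a log2 Cy5 of 6.61, against the signal measured in deer, 6.29, although that was not called above background. The probe was not called (adjusted p 0.296, and 0.0262 without HF lactation animal 3). No deer array read this probe above background, so no size of difference is given beyond the bound.

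Of the 4 genes that are no cathelicidins, BPI was called besides PGLYRP1, and it was lower in dry deer. Deer read -1.88, -1.87, -1.66 and -1.77, while dry cattle ranged from -1.84 to 0.62. The difference was -1.15 ± 0.45 (adjusted p 0.034), the groups overlapped, and the second probe was not called at -0.25 ± 0.24 (adjusted p 0.402). The call was lost without HF dry animal 3, without PR dry animal 3 and without any single one of the 4 dry deer, with differences of -0.93 to -1.20 and adjusted p between 0.0539 and 0.0713. LTF (0.40 ± 0.51, adjusted p 0.524) and LCN2 (-0.03 ± 0.44, adjusted p 0.953) were not called.

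At peak lactation, 2 of 18 probes were called, both higher in deer, against 48.6% of all probes, with 21.7% higher and 26.8% lower. At an unadjusted p under 0.05 there were 3 of 18, against 54% of all probes. PGLYRP1 read 2.11, 2.02, 1.97 and 1.43 in lactating deer, against -1.03 to 0.14 in 7 of the 8 lactating cattle and 3.16 in HF animal 3. The difference was 1.96 ± 0.49 (adjusted p 0.00209). CATHL1 was higher by 0.91 ± 0.26 (adjusted p 0.00568), and without lactating deer animal 1, which read 1.58, it was not called at 0.59 (adjusted p 0.0554). Leaving out HF lactation animal 3 gave 7 of 18 in place of 2, against 47.2% of all probes in the same fit. PGLYRP1 was then higher by 2.46 ± 0.19 (adjusted p 1.18e-09), CATHL2 was called at 1.15 ± 0.32 (adjusted p 0.00496), and CATHL6 turned from -0.07 to a called 0.35 ± 0.10 (adjusted p 0.00477).

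BPI was the only one of the 10 genes whose dry and lactating levels were correlated across cattle after adjustment. By its brighter probe, HF animals 1 to 4 read -0.89, -1.84, 0.62 and -0.75 when dry and 0.01, -1.49, 1.57 and -0.73 in lactation. PR animals 1 to 4 read -0.62, -1.49, 0.50 and -0.70 when dry and -0.34, -0.91, 0.31 and -0.13 in lactation. Animal 3 was the highest and animal 2 the lowest of its breed in both states and both breeds. Over the 8 cattle, dry and lactating levels correlated with Pearson's r = 0.90 (exact permutation p = 0.00104; 0.0104 after Benjamini-Hochberg adjustment over the 10 genes) and Spearman's rho = 0.83 (exact permutation p = 0.0154; 0.154 adjusted). Leaving out the 2 animals farthest from the median dry value, HF 3 and PR 3, gave r = 0.84 over 6 animals, which no longer passed 0.05 (exact permutation p = 0.0583), and leaving out HF animal 3 alone gave r = 0.87 over 7 (exact permutation p = 0.00833). The second BPI probe gave r = 0.88 (exact permutation p = 0.00169) and rho = 0.98 over the same 8 cattle. Both arrays of an HF animal share a slide, as do those of PR animals 1 and 4, while those of PR animals 2 and 3 do not.

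**Figure D3:**
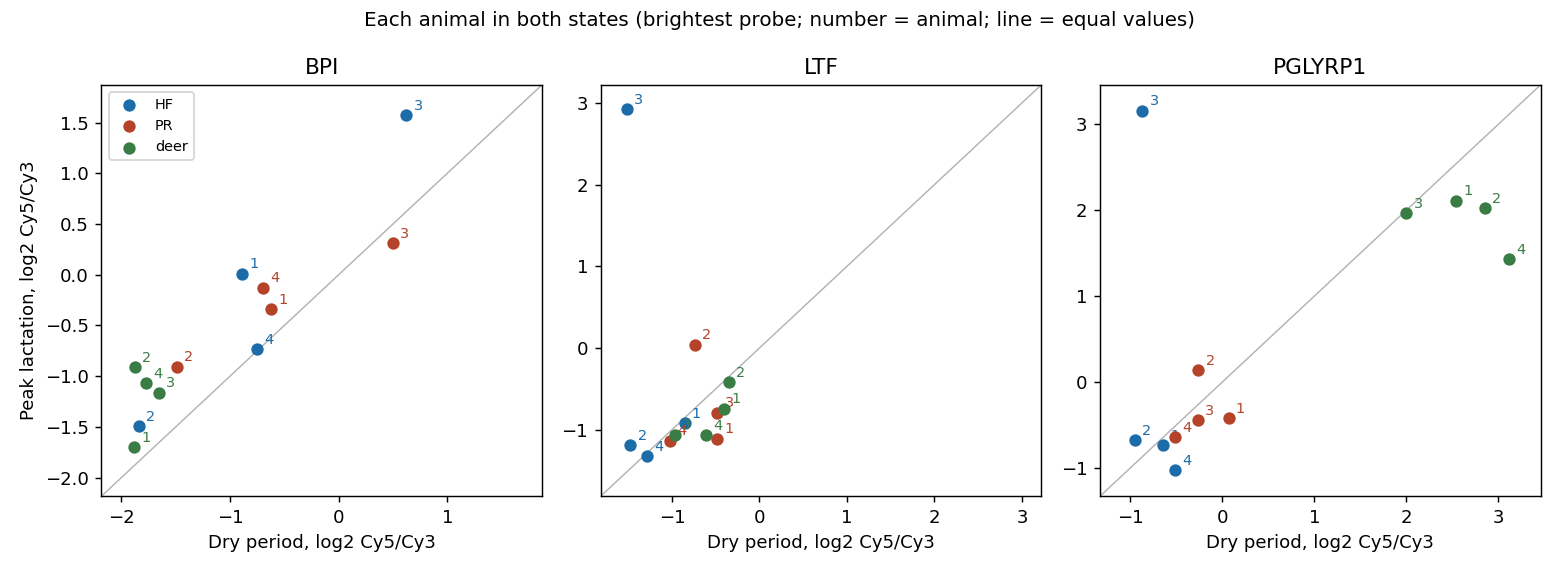
Log2 Cy5/Cy3 at peak lactation (vertical axis) against the dry period (horizontal axis) for the brightest probe of BPI, LTF and PGLYRP1; points are the 12 animals, numbered within breed or species, and the grey line marks equal values. For BPI the cattle lie near or above the line and in a like order in both states (r = 0.90 over 8 cattle), whereas for LTF and PGLYRP1 HF animal 3 alone lies far above it.

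The 9 other genes did not pass the test. Their Pearson's r between states over the 8 cattle ranged from -0.42 (CATHL5) to 0.28 (LCN2), with exact permutation p of 0.276 or more. CATHL2 went from r = -0.05 over 8 animals to r = 0.96 over the 7 without HF animal 3 (exact permutation p = 0.00357, not adjusted), where the high points were PR animals 1 and 2. The bright array of PR dry animal 1 is among these points.

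The genes were also set against each other across the 16 cattle arrays, after removing each group's mean. Pearson's r between pairs of the 9 genes other than BPI was between 0.79 and 0.99, and between BPI and the others it was 0.37 to 0.59. These values describe 16 arrays of which a single one carries most of the spread. Without it, LTF and PGLYRP1 still gave r = 0.83, CATHL4 and PGLYRP1 also 0.83, and CATHL1 and CATHL2 0.72, but LCN2 gave -0.41 to 0.04 with the cathelicidins and -0.31 with LTF. BPI gave -0.42 to -0.01 with the other 9.

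The array that stood out was high for a wider set of transcripts, named here by the closeness of their profile to the mean of the 10 genes. Over the 16 cattle arrays the closest 6 were CRISP3 (r = 0.99), CAMP, the cathelicidin CATHL7 (0.98), FOS (0.97), EGR1 (0.96), FOLR3 (0.95) and GRO1, the neutrophil chemokine CXCL1 (0.94). CRISP3 is a specific granule protein and FOLR3 a secreted folate-binding protein, whereas FOS and EGR1 are immediate early transcription factors. EGR1 read 5.59 and FOS 5.01 on that array, against highest other cattle values of 0.62 and 0.12. Without the array, r was -0.12 for FOS, -0.15 for EGR1 and 0.14 for GRO1, which were above background on 14 or more of the 16 cattle arrays. CRISP3, CAMP and FOLR3 were above background on only 3, 4 and 5 of the 16, so that without the array their r of 0.60, 0.63 and 0.49 ran mostly over values below background. In the 8 deer arrays these 6 gave r between -0.24 and 0.46.

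Other granule proteins were read from a list of 46 genes, of which 41 were measured and none was called in any breed or species by limma. In HF, 33 of 36 tested were higher in lactation, with a median of 0.57, and 0.30 without HF lactation animal 3. In PR 32 of 36 were higher with a median of 0.33, and in deer 20 of 39 with a median of 0.01. The 6 genes with the lowest p over the 3 comparisons had it in HF: MMP9, the granule gelatinase (1.66 ± 0.35, adjusted p 0.173), TCN1, a vitamin B12 carrier of specific granules (1.59 ± 0.38, adjusted p 0.247), SRGN, the granule proteoglycan (0.82 ± 0.23, adjusted p 0.323), S100A9 (1.40 ± 0.40, adjusted p 0.323), S100A12 (1.23 ± 0.44, adjusted p 0.459) and FCN1 (0.62 ± 0.23, adjusted p 0.476). MMP9, TCN1 and S100A9 had differences of 1.29, 1.38 and 1.21 without HF lactation animal 3. On that array 20 of the 41 were above every other cattle array, among them OLFM4 (2.87 against a highest other value of 0.20) and CRISP3 (2.14 against 0.28). TCN1 (1.24), MPO (-0.29) and ELANE (0.23) lay within the range of the other cattle arrays, and CTSG read 0.30 against a highest other value of 0.25. OLFM4, CRISP3, MPO, ELANE and CTSG were chosen after their values were seen.

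**Figure D4:**
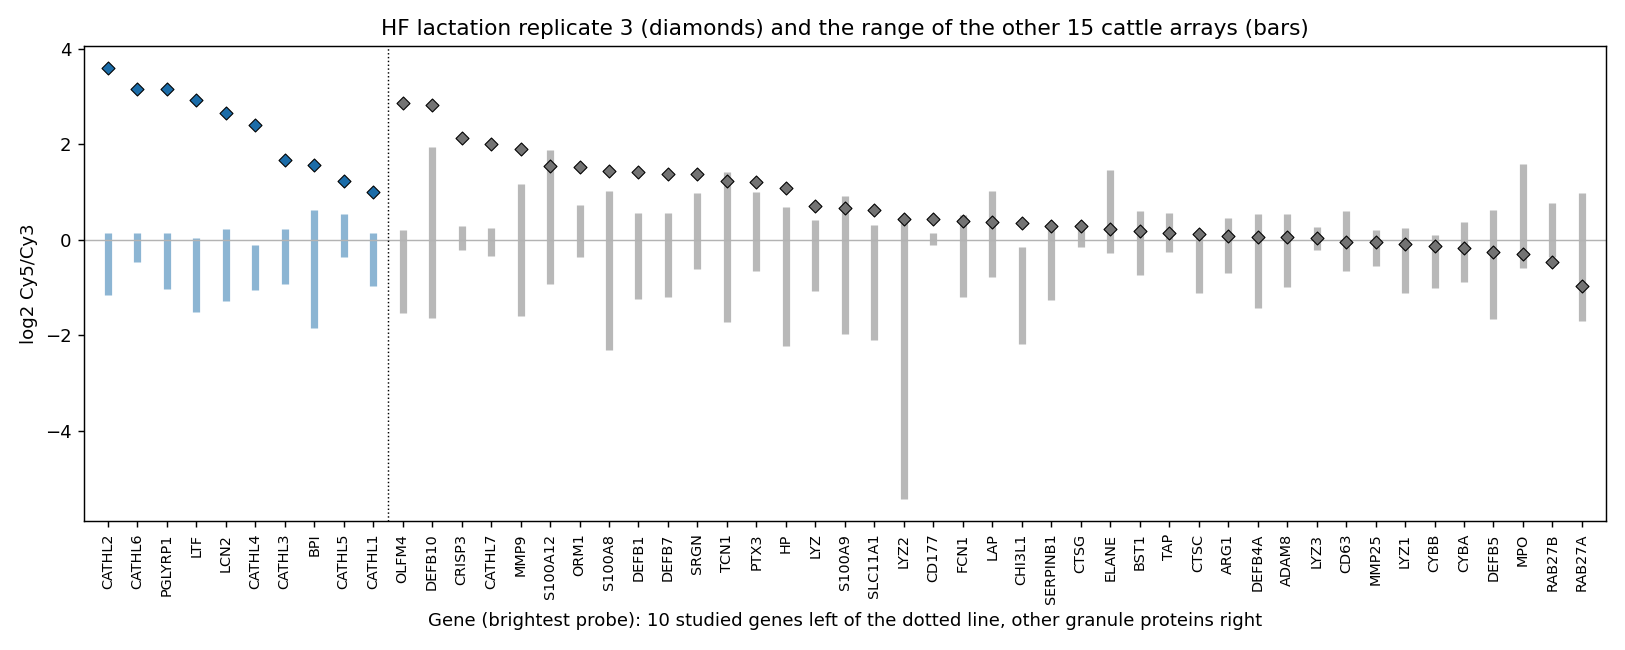
Log2 Cy5/Cy3 (vertical axis) of HF lactation animal 3 (diamonds) and the range of the other 15 cattle arrays (bars) for the 10 studied genes, left of the dotted line, and 41 other granule proteins, right of it (horizontal axis, brightest probe of each gene). All 10 studied genes and OLFM4, CRISP3 and CATHL7 lie above their bars, and MPO and ELANE lie within theirs.

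Transcription factors and receptors of granulocyte maturation were also read on that array. Of the 18 listed regulators, among them CEBPE, which drives specific granule genes, 2 were highest of all cattle arrays on HF lactation animal 3, and the mean over the list was -0.06 there, against -0.15 to 0.01 over the lactating HF arrays. In HF 10 of 17 tested were higher in lactation, in PR 8 and in deer 7, and none was called. Immature myeloid markers, 7 of 11 measured, gave a list mean of 0.09 on that array, inside the -0.13 to 0.48 of lactating HF.

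Markers of cell types were read beside these values. The lists overlap, so their counts are not independent of each other. Among the other granule proteins above, MMP9, S100A8, S100A9, S100A12 and CD177 are also neutrophil markers. FCN1 and LYZ are also monocyte markers, and MPO, ELANE and CTSG also immature myeloid markers. Neutrophil markers (12 of 16 measured) had a list mean of 0.71 on the array of HF lactation animal 3, the highest of all HF arrays, and -0.31 to 0.71 over lactating HF against -1.13 to -0.33 over dry HF. All 11 tested were higher in lactation in HF (median 1.09, and 0.82 without that array) and in PR (median 0.55), and 8 of 12 were lower in deer (median -0.35). None of these was called. In lactating HF animals 1 to 4 the neutrophil list mean was -0.19, 0.56, 0.71 and -0.31. The list mean of the 10 studied genes was -0.53, -0.67, 2.34 and -0.68 on the same arrays. Means of lists of different genes are not on a common scale, so their sizes were not compared. Monocyte markers were higher in lactation for 11 of 12 in both breeds, with medians of 0.62 in HF and 0.54 in PR. T cell, B cell and NK cell markers were lower in HF for 11 of 11, 8 of 8 and 8 of 8 tested. Platelet (6 of 9 measured), erythroid (10 of 11) and eosinophil, basophil and mast cell markers (10 of 15) had means of -0.67, -0.15 and -0.19 on that array. The part of cell composition in the values of the 10 genes was not tested.

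The study's own selections were checked for these probes. The authors' deposited tables hold, as differing between states, 437 probes for HF, 158 for PR and 576 for deer, of 43653 on the array. None of the 22 probes is in any of them. With lists this small against the array, 0 of 22 is no result about these genes.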

How the data were processed

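RNA from blood was measured on 24 Agilent arrays in 6 groups of 4. Spot intensity, per the file headers, was deposited for Cy5 and Cy3 as a mean with the median of its local background. The log10 of the processed Cy5 over Cy3 signal and other columns, with calls for background, saturation and outliers, were deposited too, per the file headers. Agilent Feature Extraction is version 10.7.3.1 in the submitters' processing notes but 10.10.1.1 in the files. The authors deposited log2 ratios in tables of probes they had selected, and the normalization behind these is not given in the sources used here.

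Mean signals were background-corrected by normexp (offset 50) and normalized by loess within arrays without the 1417 control spots, in limma 3.58.1 (statmod 1.5.0, R 4.3.3). Outlier spots were kept, and only 1 spot of these genes was such a spot, on the array of PR dry animal 1. Tested probes had Cy5 well above background on 3 or more of the 4 arrays in any group compared. The limma fit had 6 group means over 24 arrays without pairing of animals. The p-values were adjusted by Benjamini-Hochberg over every probe tested, with a threshold of 0.05. Each SE comes from the spread shared by all 24 arrays, so HF lactation animal 3 enters it in every comparison of the main fit. A gene is its probe of highest mean intensity unless another probe is named. A bound on a fold change sets the bright group's mean Cy5 against the dim group's measured Cy5. On a dim array, the lowest signal among probes above background was used in its place where that was higher. The fit was tested on simulated data. Figures and permutation tests used Python 3.11.15, scipy 1.17.1 and matplotlib 3.10.9. Sequences come from the spot files.

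The 10 genes and all lists were chosen with earlier results of these data known. In the list of other granule proteins, the 6 genes of lowest p over the 3 lactation comparisons are named. The most alike genes are the 6 of highest r.

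The subject numbers pair the states, since the series text states that each animal was bled in both. Residuals of the 2 arrays of an animal correlated at 0.182 to 0.502 in HF, 0.0259 to 0.281 in PR and 0.177 to 0.354 in deer. The dry array of PR animal 1, the bright array, correlated best with the lactation array of PR animal 3. Every other dry array correlated best, within its breed or species, with the lactation array of the same animal. Alternatives tried were Agilent's ratio, median centring, Cy5 alone, other filters, outlier spots removed, replicate block, slide, array position, fewer arrays, and each array left out.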

Additional observations from a re-analysis of the deposited data

Results flagged for a closer look

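In each of the 132 groups of 4 arrays (22 probes in 6 groups), the highest or lowest value was checked for its gap to the nearest of the others. Of these, 26 had a value apart from the other 3 by Dixon's criterion, and chance gives about 1 in 20 groups. HF lactation animal 3 held 17 of them. Its values, given by gene, were 0.998 and 1.19 for CATHL1, 3.61, 2.50 and 1.93 for CATHL2, 1.67 for CATHL3, 2.40 for CATHL4, and 3.16 and 2.10 for CATHL6. For LTF they were 2.92, 3.45, 3.17, 2.02 and 0.969, for LCN2 2.66, and for PGLYRP1 3.16 and 3.45. CATHL5 and BPI on that array stayed under the criterion.

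The other values apart were scattered. PR dry animal 1, the bright array, read 0.13 for CATHL6 and -8.591e-05 for the third LTF probe, each the highest of its group. PR lactation animal 2 read -0.28 for CATHL1 and 0.22 for the second CATHL6 probe. Dry deer animal 2 read 2.73 for CATHL3 and 1.17 for the second CATHL6 probe. Dry deer animal 1 read 0.40 for the second CATHL1 probe, and lactating deer animal 1 read 0.56 for it and 0.073 for the opposite-strand CATHL1 probe.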

How the results depend on the processing

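No probe of these genes was called in the lactation, interaction or breed comparisons under any alternative run. With the replicate block every count was as without it, at 0, 8 for deer against cattle when dry and 2 in lactation, and it changed no other call. The count for dry deer against cattle was 8, and 3 with the stricter filter and 5 with array position as a factor. It was 12 with only the arrays of the comparison and 11 each with Agilent's ratio and without HF animals 2 and 3. Leaving out single arrays gave 6 to 8, and 12 without HF lactation animal 3, an alternative added after seeing the data. For lactating deer against cattle the count was 2. It was 8 with Agilent's ratio, 1 with the stricter filter, 8 without HF animals 2 and 3, and 7 without HF animal 3 in both states, which was added after seeing the data. Leaving out single arrays gave 1 (deer lactation animal 1) to 7 (HF lactation animal 3). The stricter filter tests fewer probes, and the other causes were not tested. CATHL6 in this comparison was -0.07 and turned to a called 0.34 without HF animals 2 and 3 and 0.35 without HF animal 3. Leaving out single arrays gave it -0.22 to 0.35, the last a call without HF lactation animal 3. BPI in dry deer lost its call with Cy5 alone, median centring, array position and 6 of the left-out arrays, with adjusted p of 0.0539 to 0.453. Slide as a fixed factor, also added later, could not be fitted for deer against cattle within a state, since they shared no slide. For lactation against dry in deer it gave a median of -0.03 in place of -0.24. With slide fitted, CATHL1 was 0.28, LTF 0.06, LCN2 -0.02 and PGLYRP1 -0.23. These are the differences on the single deer slide with both states, so this fit repeats that comparison of 1 dry with 2 lactating deer. CATHL2 stayed between -1.84 and -1.15 in deer under every alternative. With 4 arrays a group, differences of dim probes were limited by signal near background.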
